A study of Mus musculus with 2 samples.

Results

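The Hoxa, Hoxb and Hoxc clusters are 3 runs of homeobox genes, on mouse chromosome 6 (Hoxa), chromosome 11 (Hoxb) and chromosome 15 (Hoxc). The 29 genes described here (10 Hoxa, 10 Hoxb and 9 Hoxc genes) were taken by name from a RefSeq gene table of mm10 that lists 21631 protein-coding genes on chromosomes 1 to 19 and X. Their chromatin loops were read from a Micro-C loop list of V6.5 cells, a male mouse embryonic stem cell line. Micro-C cuts crosslinked chromatin with micrococcal nuclease and joins neighbouring ends, so that pairs of sites in frequent contact can be read by sequencing. The single group, siControl, holds 2 samples of cells transfected, with DharmaFECT1, with the control siRNA siGLO at 50 nM and collected 48 hours later, with no other genotype or treatment named. Its 4982 loops are given as 1 list for the group, so the spread between the 2 samples could not be measured and nothing below was tested against it. The depth is unknown, and a loop list holds no expression values from which the cell type could be checked.

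Hox genes encode transcription factors that give cells along the head-to-tail axis their identity. Genes of the clusters carry numbers by their similarity (paralogue groups 1 to 13), and they lie in that order along the chromosome. Low-numbered genes act toward the head and earlier in development, and high-numbered genes act toward the tail and in the limbs and genital region. In pluripotent cells the clusters are mostly silent and covered by Polycomb complexes, and sites of the boundary protein CTCF lie within and beside them. None of this background was measured here.

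A loop was assigned to a cluster if an anchor, which is either of the 2 intervals that it joins, lay inside the cluster or within 100 kb of it, or if the loop enclosed the cluster. This gave 10 loops, of which Hoxa had 4, Hoxb had 3 and Hoxc had 3. Loops are listed at a pixel size, the width of their anchors, which was 5 kb for 5 of the 10 and 10 kb for the other 5. The clusters differ in layout. Hoxa runs over 98.5 kb from Hoxa2 at 52162417 to Hoxa13 at 52260880, and Hoxb over 173.9 kb from Hoxb13 at 96194316 to Hoxb1 at 96368254. Hoxc runs over 115.7 kb from Hoxc13 at 102921131 to Hoxc4 at 103036856. Positions are in mm10, and exons were not analysed here. Group 13 lies at the higher coordinates in Hoxa and at the lower coordinates in Hoxb and Hoxc, and gene starts face group 13 in all 3, as far as the strand is listed.

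The Hoxa cluster held a pair of adjoining anchors in its middle, at Hoxa6, Hoxa3 and Hoxa7, each with 1 loop. The anchor of 5 kb (52205001 to 52210000) held the start of Hoxa6, which patterns the thoracic skeleton. The anchor of 10 kb beside it (52210001 to 52220000) held both ends of Hoxa7, which acts at similar levels of the axis, and the start of the long record of Hoxa3, which is needed in the pharyngeal arches. RefSeq's promoter table gives start sites for 13 of the 29 genes. Those of Hoxa6, Hoxa3 and Hoxa7 were the 3 that lay at an anchor, so the 250 bases before each of them are shown, from RefSeq (GRCm38.p6, minus strand, written 5′ to 3′). Capitals mark CpG dinucleotides, the sites of DNA methylation, which are dense at promoters that Polycomb binds.
Hoxa6 (chr6:52208673-52208922): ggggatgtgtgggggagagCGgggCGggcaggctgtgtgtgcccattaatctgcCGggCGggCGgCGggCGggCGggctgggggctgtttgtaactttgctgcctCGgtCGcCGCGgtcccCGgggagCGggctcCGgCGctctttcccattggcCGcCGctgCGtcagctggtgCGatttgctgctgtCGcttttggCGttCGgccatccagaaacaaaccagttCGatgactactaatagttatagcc
Hoxa3 (chr6:52213068-52213317): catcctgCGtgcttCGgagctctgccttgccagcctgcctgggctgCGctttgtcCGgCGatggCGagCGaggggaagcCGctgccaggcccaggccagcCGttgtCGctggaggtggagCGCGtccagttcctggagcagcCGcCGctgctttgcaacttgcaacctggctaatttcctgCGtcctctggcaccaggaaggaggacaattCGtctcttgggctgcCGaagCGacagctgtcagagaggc
Hoxa7 (chr6:52218574-52218823): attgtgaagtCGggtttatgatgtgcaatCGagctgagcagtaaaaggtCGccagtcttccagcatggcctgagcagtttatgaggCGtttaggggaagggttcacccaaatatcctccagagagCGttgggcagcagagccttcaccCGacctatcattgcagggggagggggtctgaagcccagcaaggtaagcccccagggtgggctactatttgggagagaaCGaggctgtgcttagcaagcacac

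These promoters differed in CpG content. The Hoxa6 stretch held 24 CpG sites and 65.2% G and C bases, and the Hoxa3 stretch 18 CpG sites and 64.8%. The Hoxa7 stretch held 7 CpG sites and 54.8%, close to the median of all 32851 listed promoters, which was 6 CpG sites and 52.4%. Over the 14 listed promoters of the 29 genes the median was 12.5 CpG sites and 58.6%, with a range from 3 CpG sites at Hoxa9 to 35 at Hoxa13, so the promoters at anchors were neither the richest nor the poorest. The core letters of the CTCF motif, CCACNAGG, were searched on both strands of the 250 bases. They were in none of the 3 promoters at anchors and in 1 of the 14 in all, that of Hoxb4, against 4.22% of all listed promoters. GGTTCA, letters of the retinoic acid response elements of Hox clusters, was found at 1 of the 14, in the Hoxa7 stretch, against 8.85% of all listed promoters. No promoter of the 14 held both motifs. The anchors are 5 and 10 kb wide, so most of their bases lie outside these windows.

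An anchor held an end of 7 of the 29 genes (24.1%, exact Clopper-Pearson 95% interval 10.3 to 43.5%), and of 9.04% of all protein-coding genes. They were Hoxa3, Hoxa6, Hoxa7, Hoxb3, Hoxb5, Hoxb6 and Hoxc12. Such intervals cover counting error only and treat genes as independent, whereas these 7 genes shared 4 anchors. Counted by any base of the record the same 7 genes were at an anchor, against 17.7% of all genes. By listed start sites 3 of 13 genes were (23.1%, 5.04 to 53.8%), against 5.2% of all genes with a listed start. Hoxb3, Hoxb5, Hoxb6 and Hoxc12 have no listed start, so that count rests on Hoxa3, Hoxa6 and Hoxa7. Of the 4 loops that start at the 4 anchors of these genes, 2 scored below the median of their pixel size. When loops below the middle score for their pixel size were left out, Hoxa6 and Hoxc12 were left (6.90%, against 4.72% of all genes).

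**Figure D1:**
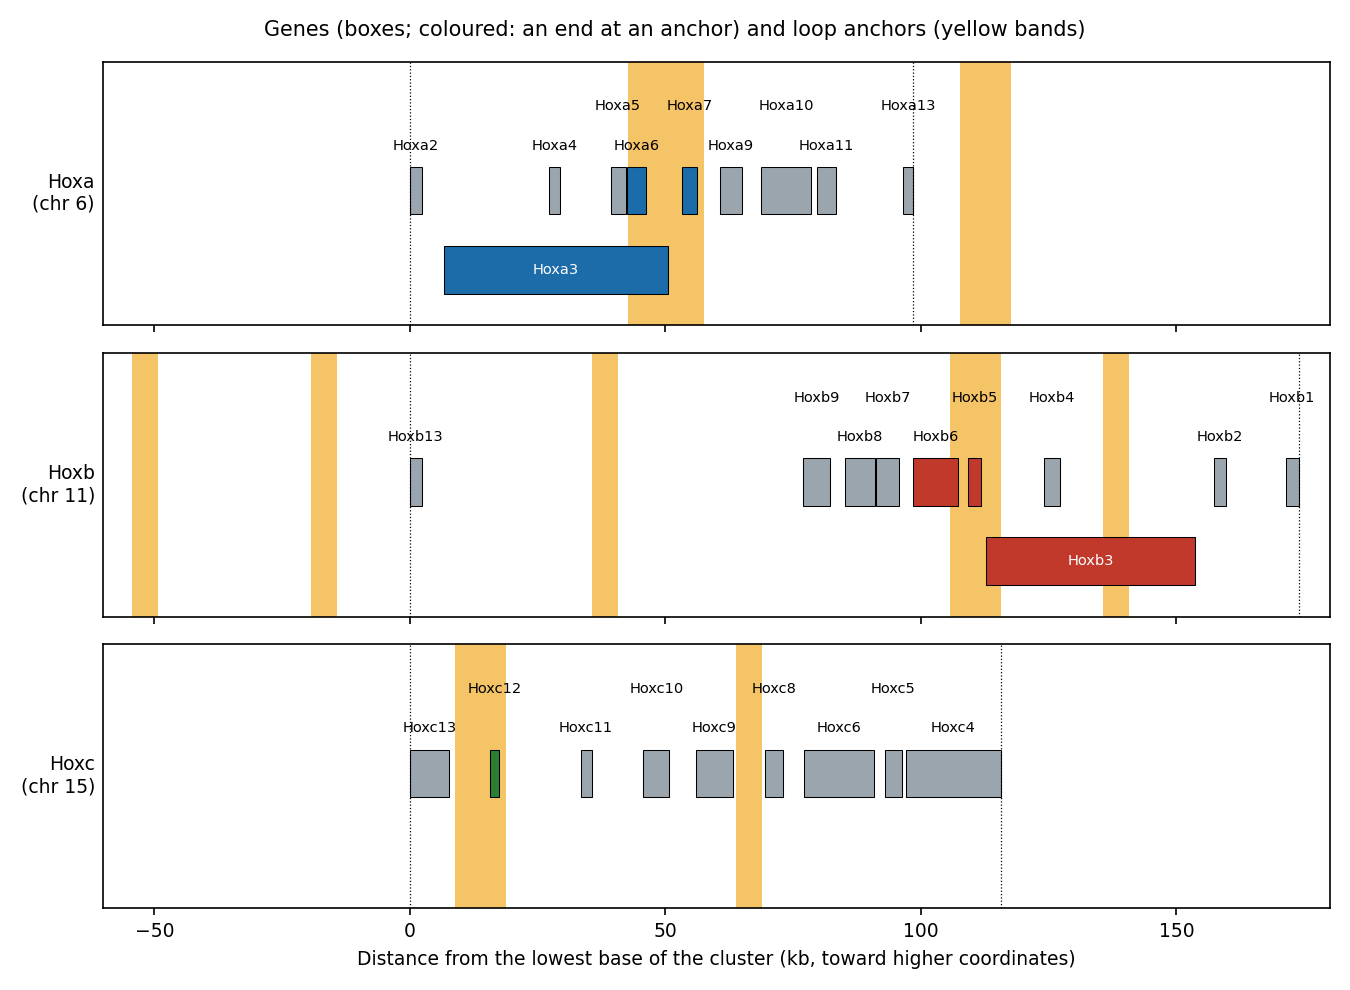
Genes (boxes, coloured where an end lies at an anchor) and loop anchors (yellow bands) of Hoxa, Hoxb and Hoxc, by distance in kb from the lowest base of each cluster. Dotted lines mark the ends of each cluster. The anchors at Hoxa6 and Hoxa7 adjoin, the Hoxb anchors are spread over 3 places inside the cluster, and the Hoxc anchors lie at Hoxc12 and between Hoxc9 and Hoxc8.

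The anchors lay at different places along the clusters. Of 7 merged anchors inside a cluster, 2 were in Hoxa, 3 in Hoxb and 2 in Hoxc, and 4 of the 7 held an end of a member gene. The centres of the Hoxa anchors stood at 45.8% and 53.4% of the length of the cluster, counted from its lower coordinate. Those of Hoxb stood at 22.0%, 63.6% and 79.4%, and those of Hoxc at 11.98% and 57.4%. By gene, the Hoxa anchors fell at groups 6, 3 and 7. The Hoxb anchors fell in the wide gap between Hoxb13 and Hoxb9, at groups 6, 5 and 3, and inside the Hoxb3 record between Hoxb4 and Hoxb2. The Hoxc anchors fell at group 12 and in the gap between groups 9 and 8. An anchor with an end of a group 6 gene was thus present in Hoxa and Hoxb, while Hoxc6 lay 8226 bp from the nearest anchor. It held the start of Hoxa6 but the higher end of Hoxb6, whose strand is not listed. Group 3 was at an anchor in both clusters that hold it, through long records. That of Hoxa3 reaches across Hoxa4, Hoxa5 and Hoxa6, and that of Hoxb3 across Hoxb4 alone.

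From the Hoxa6 anchor a loop ran 1025 kb toward lower coordinates, to 51180001 to 51185000. It had a peak score of 9.32, a score of the loop caller with no unit, which placed it at percentile 98.0 of the 1265 loops of 5 kb pixels. Its span was at percentile 99.6 of those loops, and its regional score, a second score of the caller, at percentile 99.5. The value of its peak pixel on the contact map was at percentile 56.6 of those loops, which were not matched for span. The far anchor held no protein-coding gene, and the nearest, the predicted gene Gm38821, lay 38 kb away. Hoxa2, which patterns the hindbrain and the face, Hoxa4 and Hoxa5, which is needed for lung development, lay whole between these anchors.

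The anchor at Hoxa7 and the start of Hoxa3 was joined over 630 kb, also toward lower coordinates, to 51580001 to 51590000. That site lies inside Snx10, a sorting nexin gene. The peak score of 3.93 was at percentile 47.0 of the 3047 loops of 10 kb pixels and the peak pixel at percentile 17.0. The spans of this loop and of the loop from Hoxa6 overlapped by 622.5 kb, with neither inside the other. Both near anchors are single pixels that touch without overlapping, and they count as 1 anchor when touching anchors are merged.

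On the other side, an anchor 9.1 kb beyond Hoxa13 sent 2 loops toward higher coordinates. Hoxa13 patterns the digits and the urogenital tract. The shorter (52270001 to 52280000 with 52580001 to 52590000, inside Hibadh, a gene of valine breakdown) was 310 kb long, with a peak score of 3.41 at percentile 20.3. The longer, of 5 kb pixels (52270001 to 52275000 with 52835001 to 52840000, inside the zinc finger gene Jazf1), was 565 kb long, with a peak score of 4.82 at percentile 48.0. Evx1, a homeobox gene at 52313498 to 52318389 that borders the cluster, lay between the anchors of both. No Hoxa gene did. The long noncoding RNA gene Hottip, transcribed from beyond Hoxa13, ended 2.4 kb short of this anchor.

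The 4 Hoxa loops thus fell into pairs that ran to opposite sides, and the spans of one pair did not overlap those of the other. Between them lay Hoxa9, Hoxa10, Hoxa11 and Hoxa13, over which no loop of the list passed. Hoxa9 acts in blood formation, Hoxa10 in the uterus and Hoxa11 in the forelimb and kidney. Hoxa9 was 3097 bp from the nearest anchor, Hoxa10 11197 bp, Hoxa11 22105 bp and Hoxa13 9121 bp.

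**Figure D2:**
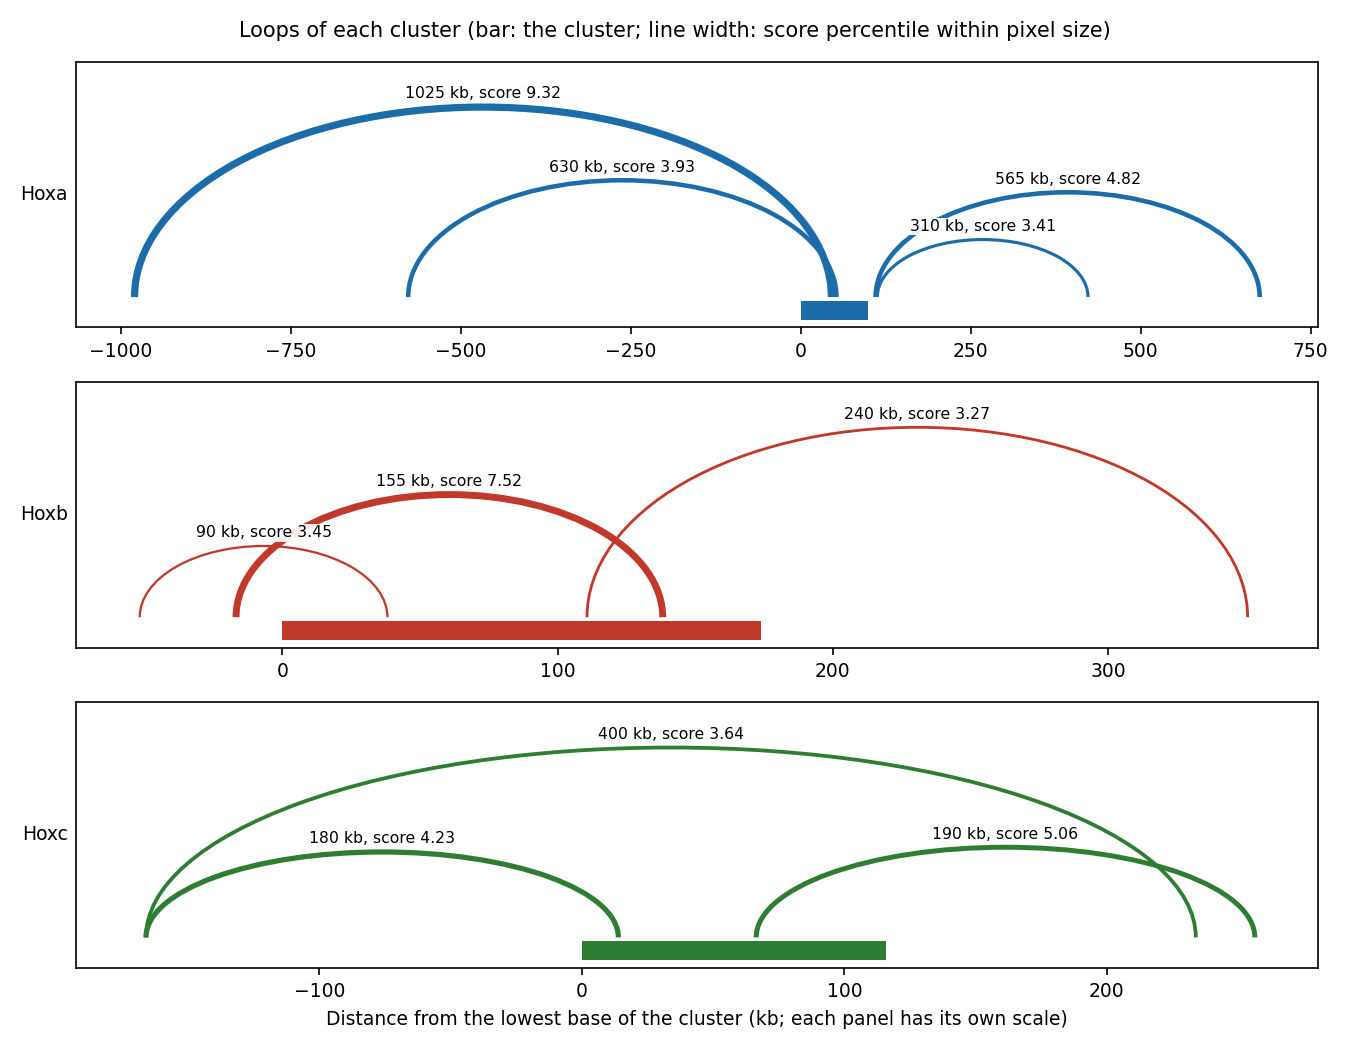
Loops of the 3 clusters as arcs over the distance in kb from the lowest base of each cluster, with each arc's span and peak score. Bars mark the clusters, each panel has its own scale, and wider lines have a higher score percentile. In each cluster loops lead away to both sides. The spans are 310 to 1025 kb in Hoxa, 90 to 240 kb in Hoxb and 180 to 400 kb in Hoxc.

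In Hoxb the loop of highest score spanned most of the cluster. It joined a site 14.3 kb outside Hoxb13 (96175001 to 96180000) to a site inside the Hoxb3 record (96330001 to 96335000), 155 kb away. Its peak score of 7.52 was at percentile 93.04 of loops of 5 kb pixels, its regional score at percentile 88.1 and its peak pixel at percentile 52.6. Neither anchor held a gene end. Between them lay 7 genes, from Hoxb13, which acts in the prostate and tail, through Hoxb9, Hoxb8, Hoxb7, Hoxb6 and Hoxb5 to Hoxb4, which acts in blood stem cells.

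Another Hoxb loop led out at the other side. It ran 240 kb toward higher coordinates from the anchor at Hoxb6, Hoxb5 and Hoxb3 (96300001 to 96310000) to a site inside Skap1 (96540001 to 96550000), an adaptor gene of T cells. The anchor held both ends of Hoxb5, the higher end of Hoxb6 and the lower end of Hoxb3. The peak score was 3.27, at percentile 13.98 of loops of 10 kb pixels, while the peak pixel was at percentile 63.1. Hoxb4, Hoxb2 and Hoxb1, a gene of hindbrain segments, lay between its anchors. This loop and the one of 155 kb shared 27.5 kb, in which Hoxb4 lies, and neither was inside the other.

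The shortest loop of the 3 clusters, of 90 kb, was also in Hoxb. It joined a site inside the tubulin-modifying gene Ttll6 (96140001 to 96145000) to the gap between Hoxb13 and Hoxb9 (96230001 to 96235000), 33.4 kb from Hoxb13 and 36.3 kb from Hoxb9. Its peak score of 3.45 was at percentile 3.87 of loops of 5 kb pixels. Hoxb13 lay alone between its anchors.

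Hoxc was the only one of the 3 clusters that a loop enclosed whole. That loop joined 102750001 to 102760000 to 103150001 to 103160000 over 400 kb. Its peak score of 3.64 was at percentile 32.5 of loops of 10 kb pixels and its peak pixel at percentile 8.66. Its far anchor held an end of Smug1, a DNA repair gene, the only protein-coding gene end at an anchor outside the clusters. From the same lower anchor, 27.8 kb from Calcoco1, a loop of 180 kb ended at Hoxc12 (102930001 to 102940000). Its peak score of 4.23 was at percentile 60.5 and its peak pixel at percentile 76.0. This loop passed over Hoxc13, a gene of hair and nail formation, and its anchor at Hoxc12 began 1187 bp beyond Hoxc13.

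The remaining Hoxc loop started in the gap between Hoxc9 and Hoxc8, which act in the trunk. Its anchor (102985001 to 102990000) lay 557 bp from Hoxc9 and 539 bp from Hoxc8 and held an end of neither. The loop ran 190 kb to 103175001 to 103180000, 6.1 kb from Smug1. Its peak score of 5.06 was at percentile 55.3 of loops of 5 kb pixels and its peak pixel at percentile 78.1. Hoxc8, Hoxc6, Hoxc5 and Hoxc4 lay between its anchors. With anchors widened by 5 kb on each side, Hoxc8, Hoxc9 and Hoxc13 had an end at an anchor too, as had Hoxa5 (414 bp away) and Hoxa9, which raised the count to 12 of 29 genes (41.4%, against 16.2% of all genes).

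Seen from the genes, 22 of 29 (75.9%, 56.5 to 89.7%) lay whole between the anchors of at least 1 loop, against 32.6% of all protein-coding genes. They were 4 of 10 Hoxa genes (40%, 12.2 to 73.8%), 9 of 10 Hoxb genes (90%, 55.5 to 99.7%) and all 9 Hoxc genes (100%, 66.4 to 100%). Neighbouring genes share loops, so these counts rest on few loops. Without the loop that encloses Hoxc, 5 of 9 Hoxc genes were left, and 18 of 29 in all (62.1%). With loops at or above the median score of their pixel size, the counts were 3 Hoxa, 7 Hoxb and 5 Hoxc genes. The share of all protein-coding genes was not computed without the enclosing loop or with these higher-scoring loops. Over 10 genes 2 loops passed, over 12 genes 1 loop, and over 7 genes none. The share of all genes was taken for at least 1 loop only, not by number of loops. The genes with none were Hoxa3, Hoxa7, Hoxa9, Hoxa10, Hoxa11, Hoxa13 and Hoxb3. Of these, Hoxa3, Hoxa7 and Hoxb3 overlap an anchor, and a loop from that anchor cannot pass over them whole. Group 13 itself differed between the clusters, with 2 loops over Hoxb13, 2 over Hoxc13 and none over Hoxa13.

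**Figure D3:**
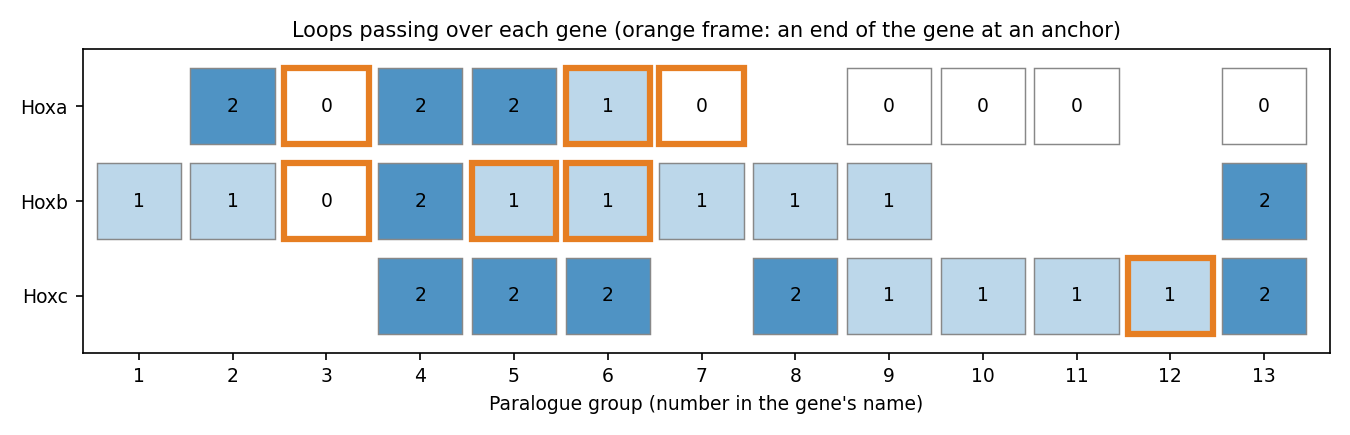
Number of loops that pass over each gene (the gene lies whole between the anchors), by cluster and paralogue group. Orange frames mark genes with an end at an anchor, and places without a box hold no gene described here. Hoxa genes of groups 9 to 13 have no loop over them, and every Hoxc gene has 1 or 2.

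By size and score the 10 loops covered much of the range of the list. Their spans ran from 90 to 1025 kb with a median of 275 kb, against a median of 325 kb and quartiles of 190 and 550 kb over all loops. The Hoxa median was 597.5 kb, that of Hoxb 155 kb and that of Hoxc 190 kb. Within 500 kb of the cluster lay 5 other protein-coding genes at Hoxa, 17 at Hoxb and 23 at Hoxc. The cluster with the longest loops thus had the fewest neighbours, but Hoxb and Hoxc did not follow that order, and the part of gene density in the spans was not tested. The median peak score was 4.08 over the 10 loops and 4.16 over all loops, and 4 of the 10 were above the median of their pixel size. The loops from Hoxa6 and to Hoxb3 were the only ones above percentile 90. The medians of the clusters were 4.38 for Hoxa, 3.45 for Hoxb and 4.23 for Hoxc, but 5 kb pixels have higher scores in general (a median of 4.88, against 3.996 for 10 kb pixels), so the order differed by percentile within pixel size, with medians of 47.5 for Hoxa, 13.98 for Hoxb and 55.3 for Hoxc.

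**Figure D4:**
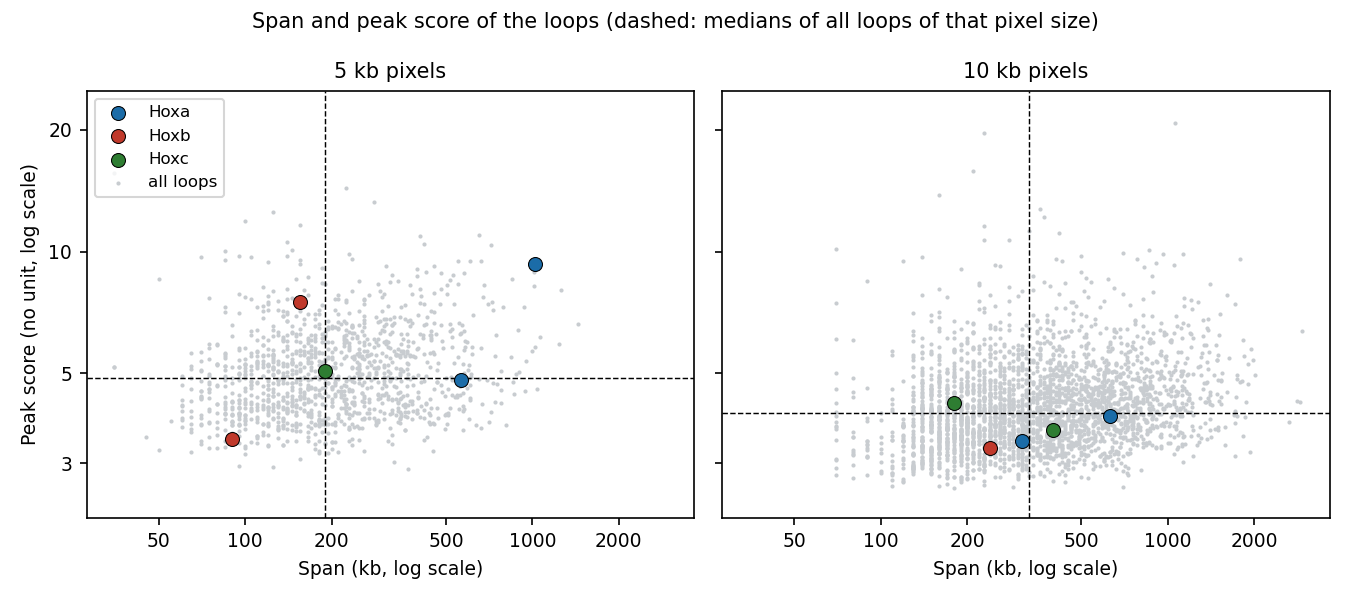
Peak score (no unit, log scale) against span (kb, log scale) of the 10 loops of Hoxa, Hoxb and Hoxc (large points) and of all loops (grey) at 5 kb and 10 kb pixels. Dashed lines are medians of all loops of that pixel size, and 5 loops with scores above 25 are not drawn. The loop from Hoxa6 (1025 kb, 9.32) and the loop to Hoxb3 (155 kb, 7.52) stand above the other 8.

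No loop joined 2 places inside the same cluster, nor a Hox gene to the end of another protein-coding gene. That is 0 of 10 loops for each, which allows a share of up to 30%. At this number of loops a share like the 5.38% of all loops with gene ends at both anchors was not detectable. For loops inside a cluster no share over all loops was computed. The lower quartile of all spans was 190 kb, so most loops of the list are too long to fit inside clusters of 98.5 to 173.9 kb. The 10 loops used 18 merged anchors. Of these, 3 had 2 or more loops, a share set beside 12.1% of all merged anchors. They were the anchor beyond Hoxa13, the one below Hoxc and the one in Snx10, whose other loop does not reach the cluster. All 29 genes lay within 100 kb of an anchor, against 59.6% of all protein-coding genes. The clusters are 98.5 to 173.9 kb long and hold anchors inside, so this follows from those anchors and is not 29 separate results. Just outside the 100 kb limit, the next loop was 148.1 kb from Hoxc (125 kb span, peak score 5.20), 302.4 kb from Hoxa (260 kb, 6.52) and 669.3 kb from Hoxb (135 kb, 4.12).

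Of 5 other protein-coding genes with an end within 100 kb of a cluster, among them Evx1, Calcoco2, Ttll6 and Skap1, 0 had an end at an anchor. This allows a share of up to 60%, so a share like the 9.04% of all genes was not detectable. Of 22 long noncoding RNA genes in or within 20 kb of the clusters, 3 had an end at an anchor (13.6%, 2.91 to 34.9%), against 9.33% of all such genes. They were Hoxaas3 and Mira at the Hoxa7 anchor and Hoxb5os at the Hoxb5 anchor. Hotair, which lies between Hoxc12 and Hoxc11, was 4.1 kb from the Hoxc12 anchor. None of the 5 microRNA genes of the clusters (Mir196b, Mir196a-1, Mir10a, Mir196a-2 and Mir615) had an end at an anchor, which allows a share of up to 60%, against 4.8% of all microRNA genes, and the closest, Mir10a, was 7.2 kb from an anchor.

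The Hoxd cluster on chromosome 2 had more loops under the same rule. It had 9, with 4 merged anchors inside its 96.9 kb and spans of 50 to 3125 kb. An anchor held an end of 3 of the 9 Hoxd genes, and of 9.04% of all protein-coding genes. Its loops to lower coordinates all left from the side of Hoxd13 and Evx2 and those to higher coordinates from Hoxd3. Loops led away to both sides in Hoxa, Hoxb and Hoxc as well. In Hoxd 1 loop, of 50 kb, had both anchors inside the cluster, and 1 loop was of 25 kb pixels, a size that no loop of the other clusters had. With 1 list, no difference between these clusters could be tested.

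Genes that act with or on the Hox clusters were counted in the same way. Of 9 genes for TALE cofactors, homeodomain proteins that bind DNA together with Hox proteins, 1 had an end at an anchor (Meis1, with loops of 140 kb, peak score 6.72, and of 880 kb, 3.97). Of 23 genes for Polycomb and trithorax proteins, which keep Hox genes silent or active, 1 did (Bmi1, 650 kb, 6.14). Of 10 upstream and bordering regulators, 4 did. These were Cdx2, which activates Hox genes in the tail bud, with a loop of 625 kb (3.79) whose anchor overlaps that of a loop of 405 kb (7.46), Evx2, Gdf11, a signal that shifts the axis toward the tail (120 kb, 2.996), and Cyp26a1, which breaks down retinoic acid (190 kb, 3.78). Of 8 other homeobox genes, 1 did (En2, whose loop of 300 kb ended at Shh, 5.73). The shares of 11.1%, 4.35%, 40% and 12.5% stand beside 9.04% of all genes, with few genes behind each.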

How the data were processed

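The study measured chromatin contacts by Micro-C in 2 samples of 1 group, and 1 headerless loop list was used. Juicer 1.5.6 and the build mm10 are named per the submitters' processing notes. The calling program with its thresholds, the normalization of the map and any pooling were likewise not given in the sources used here. Among the columns, the deposited scores, the deposited fraction in column 9 and the deposited signal of the peak pixel are the authors' own, and their meaning was inferred from the values. They served to rank loops against each other.

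Anchors were converted to 1-based positions and merged where they shared at least 1 bp. Genes, start sites and promoters came from RefSeq tables of GRCm38.p6, the assembly behind mm10. No genome sequence was used, so CTCF sites in the anchors were not analysed. A gene end at an anchor means the first or last base of the gene record. Span is the distance between anchor midpoints, and percentiles are within a pixel size, over loops of all spans. An interval beside a share is an exact Clopper-Pearson 95% interval, and the other shares carry none. A share of 0 is given the limit of 3 counts. Tables were computed with Python 3.11.15, pandas 2.3.3 and scipy 1.17.1, and figures drawn with matplotlib 3.10.9. The functions were tested on simulated data.

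The members and lists were chosen with earlier results of these data known. The genes named are all members, the genes with an end at a partner anchor, those with an end within 100 kb of a cluster (1 is not reported here), and up to 4 of each list by peak score. Genes that overlap or lie nearest to a partner anchor, the noncoding genes and the listed start sites were added after the positions were seen. The alternatives varied pixel size, flank, score, overlap and anchor width.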

Additional observations from a re-analysis of the deposited data

How the results depend on the processing

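No paired analysis was possible because both samples share a single set of loop values. Replicates could therefore not be left out in turn. Settings on start sites and on genes between anchors were chosen after seeing the data. Of 104 alternative values, 71 stayed within the counting interval (shares) or within 1.5 times the reported value (counts and medians), and 33 moved. A median score given as a percentile counted as moved where it changed sides of the middle of the list. Single pixel sizes, higher scores and no flank hold fewer loops by construction. The share of genes with an end at an anchor, 24.1%, was 3.45% with 5 kb pixels alone, against 1.86% of all genes, and 20.7% with 10 kb pixels alone, against 5.59%. It was 0% with 25 kb pixels alone, against 2.196%, and 6.90% with the higher-scoring loops, those at or above the median of their pixel size, against 4.72%. The share of genes between anchors, 75.9%, was 48.3%, 55.2% and 0% with 5, 10 and 25 kb pixels alone and 51.7% with the higher-scoring loops. The share of all genes between anchors was not computed for these settings, so no background stands beside these values. With 5 kb pixels alone Hoxa had 2 loops, 1 of them to the side of group 13, and Hoxc 1 and 0. With 10 kb pixels alone Hoxa had 2 and 1, and Hoxb 1 and 0, and the median span was 240 kb for Hoxb and 290 kb for Hoxc. With 25 kb pixels alone every cluster had 0 loops and no medians. Higher-scoring loops numbered 1 in Hoxa and 1 in Hoxb, with 1 merged anchor inside each. With no flank Hoxa had 2 loops, 0 of them to the side of group 13, and a median peak score of 6.62. Hoxa had 1 merged anchor inside with anchors widened by 5 kb or with touching anchors merged. As a percentile the Hoxa score was 47.5, below the middle, whereas the score itself was above the median of all loops. A narrower and a wider flank moved none of these results by over 1.5 times. Anchors are 5 to 10 kb wide, which limits how finely a gene can be placed.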
